A study of Mus musculus with 6 samples.

Results

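Keratins are the intermediate filament proteins of epithelial cells, and the family examined here was every protein-coding gene of the count table whose symbol is Krt followed by a number and at most 1 letter. The rule took 53 of the 55487 genes in the table. RNA-seq libraries of MECs were made for 3 wild-type and 3 IL-21isoTg samples, which are called mice here after the numbers in their labels. All mice were virgin BALB/c females 10 weeks of age, and estrous stages were randomized. The IL-21isoTg mice carry a transgene for a membrane-bound isoform of interleukin-21 expressed specifically in T cells, which the wild-type mice lack. The promoter that drives it is not given in the sources used here. The MECs were what remained after digestion of the mammary gland and magnetic removal of cells with CD45, CD31 or CD140a. The sources used here do not state whether any sample was pooled from several animals, and p-values therefore measure the spread between these samples. The comparison asks whether keratin expression differed between the genotypes.

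A keratin filament is built from pairs of an acidic type I and a basic type II protein, and each kind of epithelium uses its own pairs. In the mammary gland, luminal cells are marked by Krt8, Krt18, Krt19 and Krt7, and the basal, myoepithelial layer by Krt5, Krt14, Krt15 and Krt17. Differentiating epidermis above its basal layer switches to Krt1 and Krt10, while hair follicles use their own sets in the hair shaft and the inner root sheath. Types were assigned here from positions in GENCODE M21 on GRCm38. The 27 keratins on chromosome 11 were taken as type I. On chromosome 15, Krt18 was taken as type I and the other 25 as type II.

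The promoters of 2 pairs are shown because the results below turn on them: Krt8 and Krt18, the most abundant keratins in every mouse, and Krt10 and Krt77, which were high in the same 3 mice. Each window runs from 250 bases before to 50 bases after the RefSeq start site on GRCm38.p6, and capitals mark matches to the TATA, AP-1 and Sp1 motifs that are spelled out after the sequences, searched on either strand.
Krt8 (chr15:102004293-102004592, minus strand): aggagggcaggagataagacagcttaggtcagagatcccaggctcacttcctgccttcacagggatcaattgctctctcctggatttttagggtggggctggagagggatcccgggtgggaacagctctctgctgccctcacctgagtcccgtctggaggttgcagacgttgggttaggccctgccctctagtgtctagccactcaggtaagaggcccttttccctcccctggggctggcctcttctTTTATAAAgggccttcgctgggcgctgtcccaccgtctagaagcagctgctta
Krt18 (chr15:102027966-102028265, plus strand): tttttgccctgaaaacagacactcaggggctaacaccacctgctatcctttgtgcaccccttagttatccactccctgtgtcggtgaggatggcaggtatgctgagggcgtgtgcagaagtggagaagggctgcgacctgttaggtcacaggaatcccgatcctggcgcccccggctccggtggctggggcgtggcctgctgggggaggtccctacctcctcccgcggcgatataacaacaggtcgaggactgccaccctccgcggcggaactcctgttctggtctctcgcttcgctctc
Krt10 (chr11:99389315-99389614, minus strand): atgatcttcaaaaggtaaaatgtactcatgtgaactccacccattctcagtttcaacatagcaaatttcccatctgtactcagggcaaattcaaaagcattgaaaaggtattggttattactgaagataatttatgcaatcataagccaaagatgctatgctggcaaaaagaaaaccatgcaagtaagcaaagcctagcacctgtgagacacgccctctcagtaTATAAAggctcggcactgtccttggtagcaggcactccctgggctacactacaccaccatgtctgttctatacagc
Krt77 (chr15:101869656-101869955, minus strand): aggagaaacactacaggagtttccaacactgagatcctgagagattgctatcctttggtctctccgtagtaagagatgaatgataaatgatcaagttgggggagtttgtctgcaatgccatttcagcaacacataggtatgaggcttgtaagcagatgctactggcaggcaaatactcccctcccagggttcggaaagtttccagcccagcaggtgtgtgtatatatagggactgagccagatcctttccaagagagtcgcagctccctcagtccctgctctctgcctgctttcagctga
RefSeq promoter windows matched 36 of the 53 keratins by symbol. TATAAA, the TATA box core, was found in 19 of these 36 keratin windows (52.8%) and in 13.6% of all 32851 windows of this length. TGANTCA, the motif of AP-1 factors, was found in 1 keratin window (2.78%), that of Krt13, and in 7.81% of all windows. GGGCGG, the motif of Sp1-type factors, was found in 2 keratin windows (5.56%), those of Krt7 and Krt75, and in 35.7% of all windows. In the Krt10 window the TATAAA began 26 bases before the start site. In the Krt8 window TATAAA and an overlapping match on the other strand spanned the RefSeq start site itself, beginning 3 bases before it. The windows of Krt18 and Krt77 held none of the 3 motifs. The matches describe the letters of the windows and were not compared with expression.

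The 6 libraries held between 15902886 and 25719244 counts. Levels are in CPM, the counts relative to a library size that TMM had adjusted, and detection was set at 3 counts, or 0.112 to 0.28 CPM. The epithelial label was checked against its markers: Epcam, an adhesion molecule of epithelial cells, was at 674 to 1144 CPM in every mouse. Markers of the cells to be removed were low but present, with Ptprc (CD45) at 2.16 to 9.4 CPM, Pecam1 (CD31) at 20.6 to 86.2 CPM and Pdgfra (CD140a) at 15.8 to 60.4 CPM. A list of 15 salivary gland genes, such as the amylase gene Amy1, took 21.3%, 6.33% and 14.5% of all counts in wild-type mice 1, 2 and 3 and 20.7%, 4.65% and 37.5% in IL-21isoTg mice 1, 2 and 3. Of this list 13 genes passed the filter with a median log2 fold change of 0.98. Prh1, a proline-rich salivary protein gene, was the 1 member with an unadjusted p under 0.05 (0.0195, adjusted p = 0.809, edgeR quasi-likelihood test, Benjamini-Hochberg). It was higher in IL-21isoTg mice, as were 3.19% of all genes at that threshold. For the 4 epithelial markers the median was -0.20 on the log2 scale, and none reached an unadjusted p under 0.05. In such bulk samples, fewer cells of a type and less RNA per cell cannot be told apart. Epcam marks epithelial cells in general, not mammary cells alone. The part of salivary gland cells in the levels of Epcam and of the luminal and basal keratins was not tested.

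No keratin passed the test between the genotypes. Of the 53 keratins, 50 had a count somewhere and 28 had enough counts to be tested. None of these 28 reached an adjusted p under 0.05 in the edgeR quasi-likelihood test with Benjamini-Hochberg adjustment over 17165 genes, where the lowest adjusted p of a keratin was 0.809. In that test 0 of the 17165 genes (0%) were called. At an unadjusted p under 0.05, 1 keratin was higher in IL-21isoTg mice (Krt79), against 3.19% of all genes, and 1 was lower (Krt4), against 2.63% of all genes. The values of the genotypes did not overlap for 1 keratin that was higher (Krt20), against 5.54% of all genes, and for 1 that was lower (Krt4), against 6.54% of all genes. Krt20 passed the filter only through the IL-21isoTg mice, where it was high. The fitted log2 fold change was above 0 for 17 keratins and below 0 for 11, with a median of 0.06, beside -0.02 over all genes. DESeq2, limma-voom and the edgeR likelihood ratio test also called 0 keratins at an adjusted p under 0.05. With DESeq2, Krt4 had an adjusted p of 0.0505 and Krt79 one of 0.0793.

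**Figure D1:**
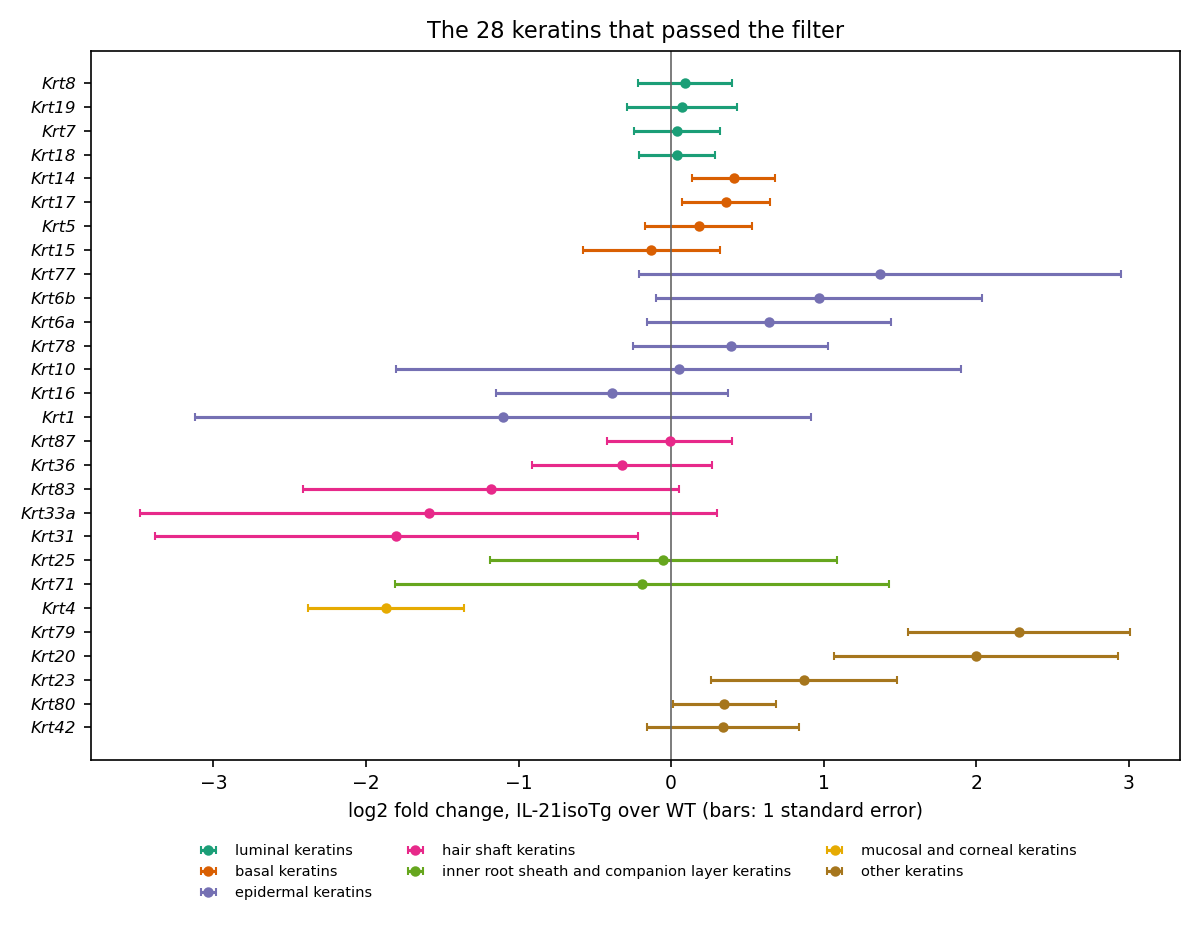
Log2 fold change of IL-21isoTg over wild-type mice (x axis) for the 28 keratins that passed the filter (y axis), colored by role, with bars of 1 standard error from the edgeR fit (n = 3 mice per genotype). The luminal keratins sit between 0.04 and 0.09 with short bars, while epidermal and hair shaft keratins have bars up to 2.02 long.

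The 53 keratins together took 0.689%, 0.706% and 0.644% of the counts in wild-type mice 1, 2 and 3 and 0.521%, 0.941% and 0.431% in IL-21isoTg mice 1, 2 and 3. The IL-21isoTg mice thus held both the highest and the lowest shares. All counts include those of salivary gland genes, at 4.65% in IL-21isoTg mouse 2 and 37.5% in IL-21isoTg mouse 3. In CPM scaled by TMM, the keratins summed to 6929, 5772 and 5824 in wild-type mice 1, 2 and 3 and to 5576, 8071 and 6397 in IL-21isoTg mice 1, 2 and 3. On that scale IL-21isoTg mouse 1 was the lowest. Luminal keratins made up 68.1% to 86% of the keratin counts, basal keratins 12.1% to 26.5% and epidermal keratins 0.595% to 7.63%. Per base of exon, type I keratins made up 59.7% to 65.1% of the summed keratin level, with the highest value in IL-21isoTg mouse 1 and the other 5 mice within 59.7% to 61.6%.

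As a group the luminal keratins were the most abundant, with fitted log2 fold changes of 0.04 to 0.09 between the genotypes. The SEs were 0.25 to 0.36, so larger differences in either direction remain possible. Krt8, Krt18 and Krt19 had the highest means, while Krt7 (mean 300 CPM) was below Krt17 (426 CPM) and Krt14 (365 CPM). Krt8, the type II partner of simple epithelia, was at 2657, 1767 and 2155 CPM in wild-type mice 1, 2 and 3 and at 1630, 3009 and 2373 CPM in IL-21isoTg mice 1, 2 and 3. The transgenic mice held both the lowest and the highest value, and the genotypes overlapped. The means were 2193 ± 446 and 2337 ± 691 CPM (SD, n = 3 each), with a log2 fold change of 0.09 ± 0.31 (SE) and an adjusted p of 0.966 (edgeR quasi-likelihood test, Benjamini-Hochberg). Krt18, its type I partner, was at 1680, 1222 and 1433 CPM in the wild-type mice and at 1192, 1667 and 1609 CPM in the IL-21isoTg mice. Wild-type mouse 2 and IL-21isoTg mouse 1 were again the low mice. The log2 fold change was 0.04 ± 0.25 (SE), with an adjusted p of 0.979 in the edgeR quasi-likelihood test with Benjamini-Hochberg adjustment.

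Krt19, a type I keratin that lacks the usual tail domain, was at 857, 917 and 1112 CPM in wild-type mice and at 749, 1615 and 674 CPM in IL-21isoTg mice. IL-21isoTg mouse 2 stood above all others, while the other two transgenic mice were below every wild-type mouse. The log2 fold change was 0.07 ± 0.36 (SE), and leaving out IL-21isoTg mouse 2 turned it to -0.44. Krt7, a type II keratin of ductal epithelia, was at 228, 357 and 306 CPM in wild-type mice and at 227, 422 and 264 CPM in IL-21isoTg mice. The genotypes overlapped, and the log2 fold change was 0.04 ± 0.28 (SE). The median over the 4 luminal keratins was 0.06 on the log2 scale, and leaving out single mice moved this median between -0.2 and 0.23. None of 10 other luminal marker genes passed the adjusted test. Their median log2 fold change was -0.33, with 3 above 0 and 7 below. The genotypes did not overlap for 1 of the 10 that was higher, against 5.54% of all genes, and for 1 that was lower, against 6.54% of all genes. Elf5, a transcription factor of the alveolar lineage, was at 95.8, 128 and 131 CPM in wild-type mice and at 231, 201 and 142 CPM in IL-21isoTg mice. Its genotypes did not overlap, and it had a log2 fold change of 0.70 ± 0.22 (SE), an unadjusted p of 0.0148 and an adjusted p of 0.809 (edgeR quasi-likelihood test, Benjamini-Hochberg). In the other direction, Cited1, a transcriptional coactivator of hormone-sensing luminal cells, was at 85.4, 90.5 and 98.8 CPM in wild-type mice and at 52.3, 72.7 and 19 CPM in IL-21isoTg mice. Its log2 fold change was -0.93 ± 0.41 (SE), with an unadjusted p of 0.0527 (edgeR quasi-likelihood test).

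Compared per kilobase of annotated exon, the keratins differed widely in mean level. Krt8 had a mean of 1157 CPM per kb over the 6 mice, followed by Krt18 at 1021, Krt19 at 532, Krt17 at 275, Krt14 at 208 and Krt5 at 113 CPM per kb. Krt8 shares 16.9% of the 100-base windows of its transcripts with the pseudogene Krt8-ps, which had 36 to 111 counts per mouse. How reads common to both were counted is uncertain. By mean, Krt7 at 42.6 CPM per kb stood between Krt5 and Krt10. Its annotation of 7049 exon bases, against 1437 to 2197 for the other luminal and basal keratins, can lower its level per kb. Krt10 was above Krt7 in wild-type mouse 2 (94.8 against 50.6 CPM per kb) and in IL-21isoTg mice 1 (45.6 against 32.2) and 3 (53.8 against 37.4). Krt8 ranged from 832 to 1537 CPM per kb and Krt18 from 829 to 1169 CPM per kb, so that these neighbours overlapped across mice although Krt8 was the higher of the pair within 6 of 6 mice. The ranges of Krt18 and Krt19 (363 to 870 CPM per kb) also overlapped. The lowest Krt19 level lay above the highest Krt17 level, 353 CPM per kb. Among the basal keratins, the ranges of Krt17 and Krt14 overlapped, with Krt17 higher within 5 of 6 mice, and those of Krt14 and Krt5 overlapped, with Krt14 higher within 6 of 6. Krt15 ranged from 18.6 to 54.4 CPM per kb, below the lowest Krt5 level of 59.8 CPM per kb, and overlapped with Krt7.

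**Figure D2:**
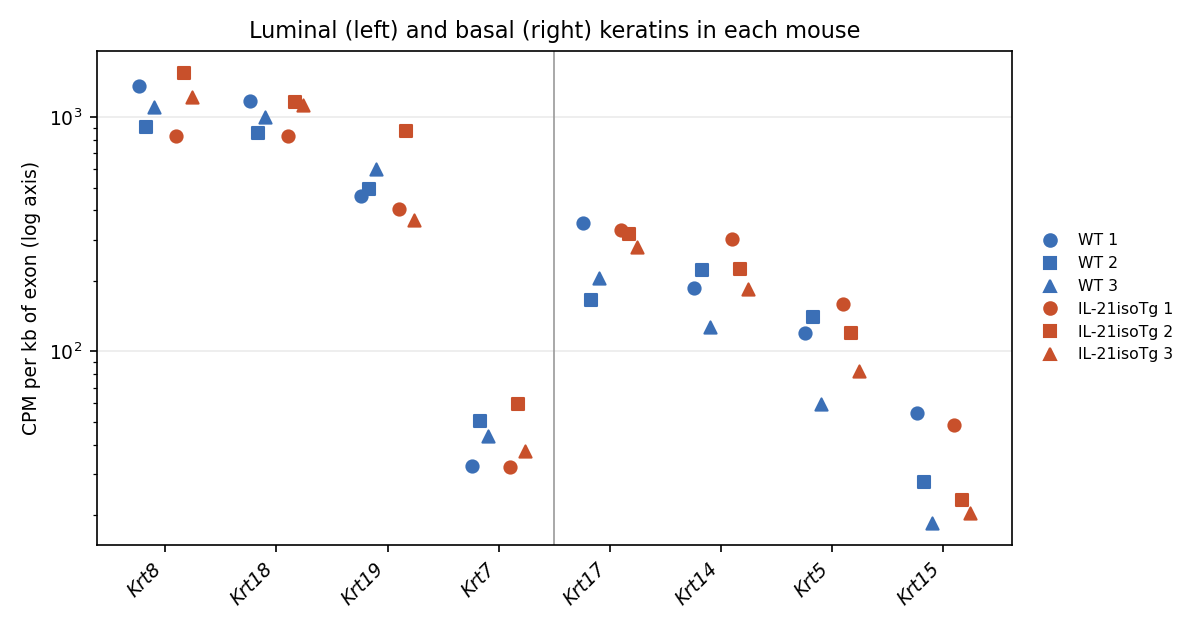
Level of the 4 luminal and 4 basal keratins in CPM per kb of exon (y axis, log scale) for each of the 3 wild-type (blue) and 3 IL-21isoTg (orange) mice, 1 symbol per mouse. The genotypes overlap for all 8 genes, and Krt8 at 832 to 1537 CPM per kb is above Krt15 at 18.6 to 54.4 CPM per kb in every mouse.

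The basal keratins were somewhat above the wild-type level in IL-21isoTg mice for 3 of 4 members, within the spread between mice. Krt5, the type II partner of basal cells, was at 264, 307 and 131 CPM in wild-type mice 1, 2 and 3 and at 349, 264 and 181 CPM in IL-21isoTg mice 1, 2 and 3. Wild-type mouse 3 was lowest and IL-21isoTg mouse 1 highest, and the genotypes overlapped. The fitted log2 fold change was 0.18 ± 0.35 (SE), with an adjusted p of 0.94 (edgeR quasi-likelihood test, Benjamini-Hochberg). Krt14, its type I partner, was at 327, 390 and 223 CPM in wild-type mice and at 532, 393 and 326 CPM in IL-21isoTg mice. The same mice were lowest and highest as for Krt5, and the lowest transgenic mouse was below 2 wild-type mice. The means were 313 ± 84.5 and 417 ± 105 CPM (SD, n = 3 each), with a log2 fold change of 0.41 ± 0.27 (SE) and an adjusted p of 0.82 (edgeR quasi-likelihood test, Benjamini-Hochberg).

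Krt17, a type I keratin of basal cells and of injured epithelium, was at 547, 257 and 318 CPM in wild-type mice and at 510, 494 and 433 CPM in IL-21isoTg mice. Wild-type mouse 1 was above all transgenic mice and the other two wild-type mice were below them. Its log2 fold change was 0.36 ± 0.29 (SE), and without wild-type mouse 1 it was 0.75. Krt15, a type I keratin linked to stem cells of stratified epithelia, was at 96.2, 49.1 and 32.9 CPM in wild-type mice and at 85.6, 41.2 and 36.2 CPM in IL-21isoTg mice. In both genotypes the first mouse was the highest, and the log2 fold change was -0.13 ± 0.45 (SE). For the 4 basal keratins the median was 0.27 on the log2 scale, and leaving out single mice moved it between 0.05 (without wild-type mouse 3; 0.06 without IL-21isoTg mouse 1) and 0.44 (without wild-type mouse 1). The 7 other basal markers had a median of 0.70. Of these, 3 were higher at an unadjusted p under 0.05, against 3.19% of all genes, with an adjusted p of 0.809 (edgeR quasi-likelihood test, Benjamini-Hochberg). They were Oxtr, the oxytocin receptor, at a log2 fold change of 1.21, and the smooth muscle genes Cnn1 at 0.96 and Tagln at 0.73. Trp63, the transcription factor that marks the basal lineage, was at 36.6, 30.2 and 9.63 CPM in wild-type mice and at 33.6, 14.3 and 20.1 CPM in IL-21isoTg mice. It was lowest in wild-type mouse 3, as were Krt5, Krt14 and Krt15. Its log2 fold change was -0.17. Acta2, the smooth muscle actin of myoepithelial cells, had a log2 fold change of 0.60. Beside these smooth muscle genes, the endothelial marker Pecam1 was at 22.6, 45.7 and 20.6 CPM in wild-type mice and at 86.2, 70.2 and 35.2 CPM in IL-21isoTg mice, with a log2 fold change of 1.11 ± 0.40 (SE) and an unadjusted p of 0.0246 (edgeR quasi-likelihood test). Pdgfra had a log2 fold change of 0.57 and Ptprc one of 0.04. IL-21isoTg mice 1 and 2 were the highest for Pecam1 and Pdgfra, as for Acta2, Oxtr, Cnn1 and Tagln. The 3 basal markers with an unadjusted p under 0.05 are therefore not 3 independent results. The part of remaining endothelial or stromal cells in the basal markers was not tested.

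Ratios within a library do not depend on how libraries are scaled. The ratio of summed basal to summed luminal keratin CPM was 0.228, 0.235 and 0.141 in wild-type mice and 0.389, 0.177 and 0.198 in IL-21isoTg mice. IL-21isoTg mouse 1 had the highest ratio and wild-type mouse 3 the lowest. The mean log2 ratio differed by 0.29 between the genotypes (exact two-sided permutation test, p = 0.6, where 3 mice against 3 cannot give less than 0.1), and without IL-21isoTg mouse 1 the difference was -0.06. The Krt8-to-Krt18 count ratio was narrow, at 1.58, 1.45 and 1.5 in wild-type mice and 1.37, 1.8 and 1.48 in IL-21isoTg mice. Its log2 difference was 0.03 (exact permutation test, p = 0.9). Krt5-to-Krt14 ratios were 0.806, 0.788 and 0.59 in wild-type mice and 0.656, 0.67 and 0.556 in IL-21isoTg mice, a log2 difference of -0.21 (exact permutation test, p = 0.3). The log2 ratio of epidermal to basal keratins differed by 0.30 (exact permutation test, p = 0.8). Adjusted over the 4 ratios with the Benjamini-Hochberg method, each exact p was 0.9.

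The epidermal keratins varied widely between mice of the same genotype. Krt10, the type I keratin of differentiating epidermis whose promoter with a TATA box is printed above, was at 1.49, 201 and 2.38 CPM in wild-type mice 1, 2 and 3 and at 96.5, 1.41 and 114 CPM in IL-21isoTg mice 1, 2 and 3. Krt1, its type II partner, was at 0.271, 131 and 0.315 CPM in wild-type mice and at 31.3, 0.633 and 29.8 CPM in IL-21isoTg mice. Krt77, a type II keratin of sweat gland ducts and epidermis, was at 0.316, 51 and 0.765 CPM in wild-type mice and at 53.8, 9.38 and 71.3 CPM in IL-21isoTg mice. Wild-type mouse 2 and IL-21isoTg mice 1 and 3 were high for all 3 genes, and wild-type mice 1 and 3 and IL-21isoTg mouse 2 were low. The highest mouse exceeded the lowest by 142-fold for Krt10, 484-fold for Krt1 and 226-fold for Krt77.

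Both genotypes had high and low mice, and the fits gave wide errors: the log2 fold change was 0.05 ± 1.85 (SE) for Krt10, -1.10 ± 2.02 (SE) for Krt1 and 1.37 ± 1.58 (SE) for Krt77. Wild-type mouse 2 decided these values. Without it, the log2 fold changes were 5.18 for Krt10, 6.10 for Krt1 and 6.35 for Krt77. All had an unadjusted p under 0.05 and none an adjusted p under 0.05 (edgeR quasi-likelihood test, Benjamini-Hochberg). The wild-type mice left in that fit were both low for these genes. Krt1 had 6 and 7 counts in them and passed the filter only through IL-21isoTg mice, where it was higher. Krt77 had 7 and 17 counts in them and also needed IL-21isoTg mice to pass. These fold changes therefore follow from leaving out the high wild-type mouse, and in part from the filter. Krt2, a type II keratin of the late suprabasal epidermis, had 676 counts in wild-type mouse 2 and 0 in the other 5 mice, where 0 counts allow up to 0.112 to 0.28 CPM, and it did not pass the filter.

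Of 10 other skin marker genes, 5 (Lor, Krtdap, Dmkn, Flg2 and Sbsn) were higher in wild-type mouse 2 and IL-21isoTg mice 1 and 3 than in every other mouse, and 5 were not. This split of the mice was taken from Krt1, Krt10 and Krt77 in the same data. The share of all genes with the same split was not counted, so 5 of 10 has no background beside it. Krtdap, a keratinocyte differentiation gene, was at 0.0451, 10.9 and 0 CPM in wild-type mice and at 6.57, 0 and 7.46 CPM in IL-21isoTg mice. Lor, which encodes loricrin of the cornified envelope, was at 0.226, 6.2 and 0.225 CPM in wild-type mice and at 3.58, 0.67 and 11.4 CPM in IL-21isoTg mice. Among those that did not share the pattern, Ivl was at 1.85, 1.11 and 0.135 CPM in wild-type mice and at 1.16, 0 and 3.08 CPM in IL-21isoTg mice, Calml3 was higher in wild-type mouse 1 (9.74 CPM) than in wild-type mouse 2 (5.53 CPM), and Sprr1b was at 0 in wild-type mouse 2. Over all 10 skin markers, 8 passed the filter, with 6 fold changes above 0, a median log2 fold change of 0.49 and 0 called. Their summed level was 50.3 to 129 CPM in wild-type mice and 78.8 to 152 CPM in IL-21isoTg mice, much of it from Lgals7, an epithelial galectin at 34.6 to 81.7 CPM in every mouse and highest in wild-type mouse 1. Flg was at 0 in all wild-type mice and in IL-21isoTg mouse 2. The part of skin cells in the levels of Krt1, Krt10 and Krt77 was not tested.

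**Figure D3:**
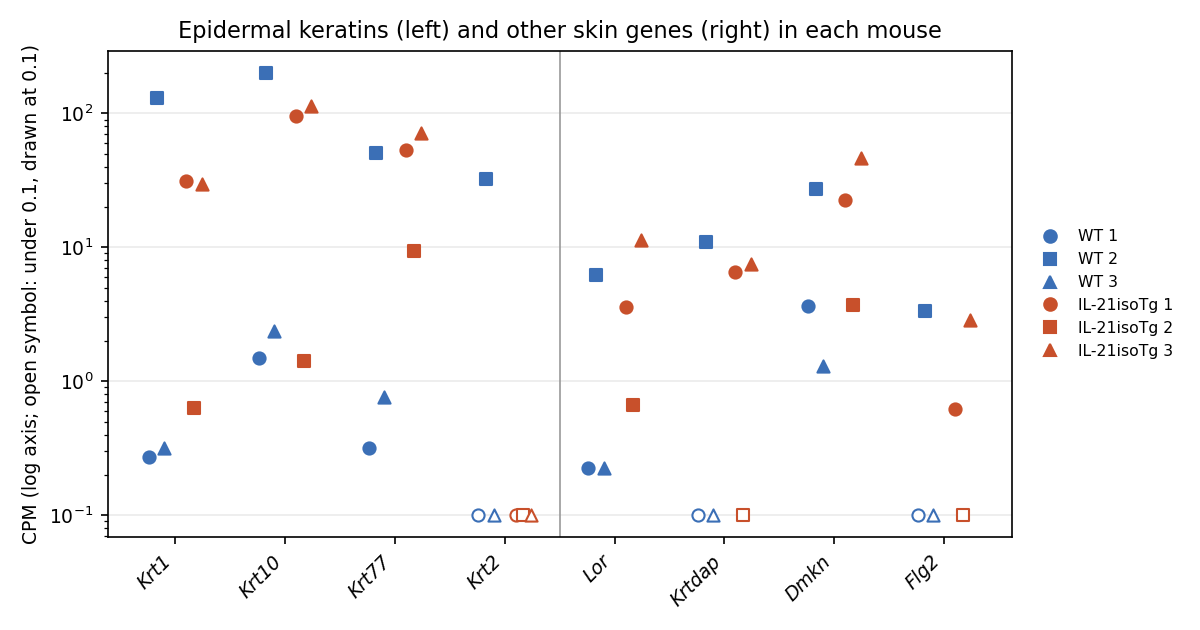
CPM (y axis, log scale) of 4 epidermal keratins and 4 other genes of cornifying skin in each wild-type (blue) and IL-21isoTg (orange) mouse, with open symbols for values under 0.1, drawn at 0.1. The filled square of wild-type mouse 2 and the circle and triangle of IL-21isoTg mice 1 and 3 lie above the other mice for 7 of the 8 genes, and Krt2 was detected in wild-type mouse 2 alone. The 4 other skin genes drawn were all taken from the 5 of 10 skin markers that have this pattern, and the 5 markers without it are not drawn.

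The epidermal keratins of wounded or thickened skin did not share that pattern. Krt6a was at 36.1, 10.2 and 9.81 CPM in wild-type mice and at 6.53, 61.4 and 18.9 CPM in IL-21isoTg mice. Krt16, a type I partner of Krt6a, was at 62, 8.65 and 10.3 CPM in wild-type mice and at 11.3, 17 and 34 CPM in IL-21isoTg mice. Wild-type mouse 1 was among the 2 highest mice for both genes, and the genotypes overlapped. The log2 fold changes were 0.64 ± 0.80 (SE) for Krt6a and -0.39 ± 0.76 (SE) for Krt16, and these turned to -0.57 without IL-21isoTg mouse 2 and to 1.13 without wild-type mouse 1. Krt6a shares 26.6% of its 100-base windows with Krt6b, and Krt16 shares 21.1% with the pseudogene Gm11597, so the split of reads among these copies is uncertain. Krt6b and Krt78 had log2 fold changes of 0.97 ± 1.07 and 0.39 ± 0.64 (SE), and Krt9, a keratin of palms and soles, had at most 4 counts. Over the 7 of 9 epidermal keratins that passed the filter, 5 had fold changes above 0 and 2 below, with a median of 0.39, and leaving out single mice moved this median between -0.46 and 0.89.

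Keratins of the hair follicle were concentrated in wild-type mouse 1. The 16 hair shaft keratins in the table summed to 46, 4.85 and 4.27 CPM in wild-type mice 1, 2 and 3 and to 8.44, 8.79 and 7.93 CPM in IL-21isoTg mice 1, 2 and 3. In wild-type mouse 1, 15 of them had at least 3 counts, against 4 to 8 in the other mice. Krt35, a hair shaft type I keratin, had 208, 0 and 0 counts in wild-type mice and 1, 0 and 4 counts in IL-21isoTg mice. Krt33b (48 counts), Krt39 (5 counts), Krt82 (7 counts) and Krt84 (6 counts) were seen in wild-type mouse 1 alone, and Krt40 had 0 counts in every mouse. Krt87 differed from this pattern, with 164, 74 and 63 counts in wild-type mice and 120, 138 and 38 in IL-21isoTg mice, as did Krt36, with 3 to 23 counts in each mouse. Krt31, Krt32, Krt33a, Krt34, Krt81, Krt83, Krt86 and Krt90 were each highest in wild-type mouse 1, at 23 to 137 counts. Krt31, Krt33a and Krt34 share 7.19% to 13% of their 100-base windows pairwise and Krt81 shares 21% with Krt86, so counts within these groups are uncertain.

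Summed, the 8 inner root sheath and companion layer keratins were also highest in wild-type mouse 1. The sums were 14.2, 0.48 and 0.495 CPM in wild-type mice and 1.62, 0.447 and 5.88 CPM in IL-21isoTg mice. Krt73, an inner root sheath keratin, had 115 counts in wild-type mouse 1 and at most 12 elsewhere. Krt25 had 56 and at most 24, and Krt71 had 54 and at most 21. Krt27, Krt28, Krt72 and Krt75 were at 8 to 35 counts in wild-type mouse 1, and Krt26 had 0 counts in every mouse. Not every member stood out in CPM, which allows for the smaller library of IL-21isoTg mouse 3. Krt25 was at 2.53 CPM in wild-type mouse 1 and 2.24 CPM in IL-21isoTg mouse 3, and Krt75 at 0.541 and 0.56 CPM. Keratin-associated protein genes, whose products cross-link hair keratins, had a count for 39 of 57 genes in wild-type mouse 1 and for 1 to 4 genes in each other mouse. Their counts summed to 595, 8 and 3 in wild-type mice and to 25, 14 and 11 in IL-21isoTg mice. All 5 hair shaft keratins that passed the filter had log2 fold changes below 0, from -1.80 to -0.01 with a median of -1.18. Without wild-type mouse 1, 5 were tested, 1 was below 0 and the median was 2.29. The lowest adjusted p was then 0.702 (edgeR quasi-likelihood test, Benjamini-Hochberg). Krt31, Krt33a and Krt83 had at most 4 counts in wild-type mice 2 and 3. In that fit they passed the filter only through IL-21isoTg mice, where they were higher, so the positive median follows in part from the filter. Wild-type mouse 1 was at the same time among the low mice for Krt1, Krt10 and Krt77, so the mice rich in hair shaft keratins and in epidermal keratins were different ones.

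**Figure D4:**
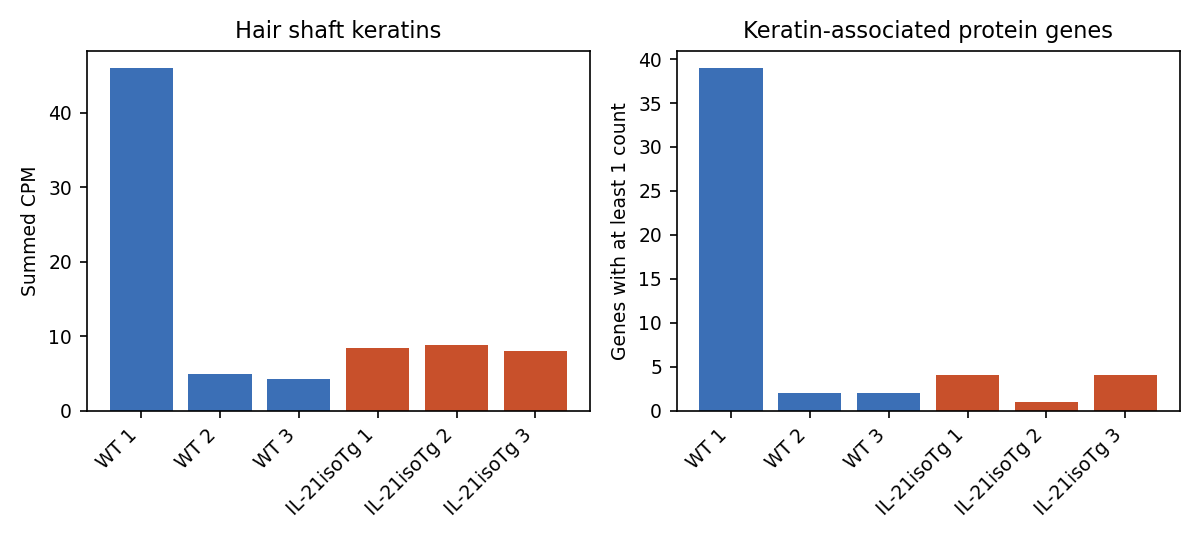
Left, summed CPM of the 16 hair shaft keratins (y axis) in each mouse (x axis); right, number of the 57 keratin-associated protein genes with at least 1 count (y axis) in each mouse, with wild-type mice in blue and IL-21isoTg mice in orange. Wild-type mouse 1 reaches 46 CPM and 39 genes, and the other 5 mice stay at or under 8.79 CPM and 4 genes.

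Krt4 and Krt79 had the lowest unadjusted p-values of the family. Krt4, a type II keratin of mucosal stratified epithelia, was at 26.8, 10.4 and 24.5 CPM in wild-type mice and at 2.41, 8.6 and 5.88 CPM in IL-21isoTg mice. Every transgenic mouse was below every wild-type mouse, with wild-type mouse 2 and IL-21isoTg mouse 2 close to each other. The means were 20.6 ± 8.91 and 5.63 ± 3.1 CPM (SD, n = 3 each), with a log2 fold change of -1.87 ± 0.51 (SE), an unadjusted p of 0.00659 and an adjusted p of 0.809 (edgeR quasi-likelihood test, Benjamini-Hochberg). The log2 fold change stayed between -2.35 and -1.5 when single mice were left out. Its usual type I partner, Krt13, had 0, 1 and 3 counts in wild-type mice and 0 in all IL-21isoTg mice, and Krt12 and Krt76, keratins of cornea and palate, had at most 4 counts and 0 counts.

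Krt79, a type II keratin of the upper hair follicle and sebaceous duct, was at 4.19, 5.86 and 3.28 CPM in wild-type mice and at 25.9, 3.35 and 36 CPM in IL-21isoTg mice. IL-21isoTg mice 1 and 3 were high, and IL-21isoTg mouse 2 was below 2 wild-type mice. The log2 fold change was 2.28 ± 0.73 (SE), with an unadjusted p of 0.014 and an adjusted p of 0.809 (edgeR quasi-likelihood test, Benjamini-Hochberg). Krt79 had an unadjusted p above 0.05 in several alternatives: 0.189 with limma-voom, at a log2 fold change of 1.53, and, with the edgeR quasi-likelihood test, 0.068 with the replicate block, 0.0696 without the filter, 0.0922 without wild-type mouse 1 and 0.0573 without IL-21isoTg mouse 3. IL-21isoTg mice 1 and 3 were also high for Krt1, Krt10, Krt77, Lor and Dmkn, but wild-type mouse 2, which was high for those genes, held 5.86 CPM of Krt79. The part of skin cells in the Krt79 level was not tested. Krt20, a type I keratin of gastrointestinal epithelium and urothelium, had 8, 0 and 4 counts in wild-type mice and 17, 15 and 11 counts in IL-21isoTg mice. Its genotypes did not overlap on few counts, with a log2 fold change of 2.00 ± 0.93 (SE) and an unadjusted p of 0.0632 (edgeR quasi-likelihood test). Krt20 reached the filter's minimum count of 10 in the IL-21isoTg mice alone, so it was tested only because it was high there. Its fold change and lack of overlap are not free of that selection.

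Krt23, a type I keratin of glandular and other epithelia, was at 39.6, 20.5 and 26.5 CPM in wild-type mice and at 32.9, 17.2 and 109 CPM in IL-21isoTg mice. IL-21isoTg mouse 3 was far above the rest and the genotypes overlapped. For Krt23 the log2 fold change was 0.87 ± 0.61 (SE), and without IL-21isoTg mouse 3 it was -0.19. The order of the 6 mice by Krt23 was the same as their order by the salivary gland share of counts. This relation was looked at after the values were seen. Pearson's r between log2(CPM + 0.5) of Krt23 and that share was 0.984 (exact permutation test over the 6 mice, p = 0.00139, the smallest it can give), Spearman's rho was 1 (p = 0.00278, the smallest it can give), and the Benjamini-Hochberg adjusted values over all 17165 genes were 0.207 and 0.324. Without the 2 mice farthest from the median share, r was 0.968. A rho of 1 was found for 85 of the 17165 genes (0.495%), and 4 of the 28 keratins had a permutation p under 0.05 for Pearson's r, against 12.7% of all genes. Among the 8 luminal and basal keratins the largest absolute r over 6 mice was 0.79, for Krt19. With the same 2 mice left out, which leaves 4, r was also large for Krt7 (-0.976, against -0.724 over all mice) and Krt17 (0.966, against 0.358), so the value over 4 mice does not set Krt23 apart.

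**Figure D5:**
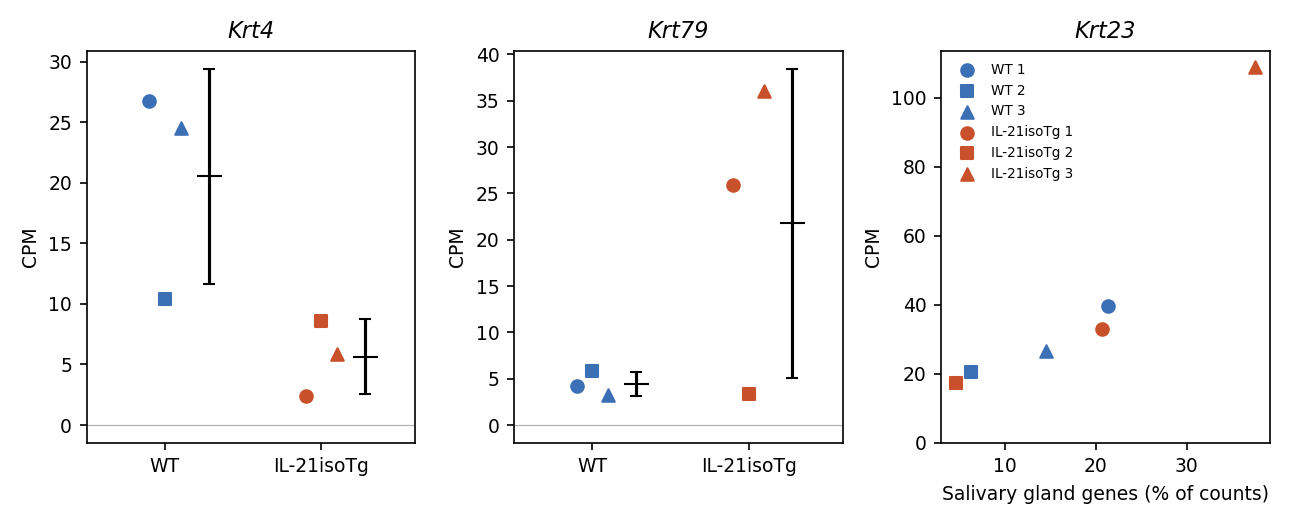
Left and middle, CPM of Krt4 and Krt79 (y axes) in each wild-type (blue) and IL-21isoTg (orange) mouse, with mean and SD in black (n = 3 each); right, CPM of Krt23 (y axis) against the share of counts in 15 salivary gland genes in percent (x axis). Krt4 is lower in all 3 transgenic mice, Krt79 is high in 2 of them, and Krt23 increases from 17.2 to 109 CPM in the order of the salivary share.

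Among the remaining members, Krt80, a type II keratin of many epithelia, was at 25.5, 20.2 and 15.4 CPM in wild-type mice and at 21.8, 16.8 and 39.7 CPM in IL-21isoTg mice, with a log2 fold change of 0.35 ± 0.34 (SE). It was highest in IL-21isoTg mouse 3, as was Krt23, and without that mouse its log2 fold change was -0.07. Krt42 had 31 to 177 counts per mouse and a log2 fold change of 0.34 ± 0.50 (SE). Krt24, Krt88 and Krt222 had at most 3, 12 and 8 counts in any mouse and did not pass the filter.

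Several genes on the opposite strand overlap keratin exons, and for some of them the counts were a steady share of the keratin counts. Gm44323, a gene of 129 bases that lies wholly within Krt5 exons on the opposite strand, had counts equal to 16.5% to 19.9% of those of Krt5 in the 6 mice. Gm36026, which shares 101 exon bases with Krt8, had 6.22% to 7.65% of the Krt8 counts, and Gm35853, which shares 263 bases with Krt80, had 13.1% to 22.8% of the Krt80 counts. Gm11940, which shares 146 bases with Krt10, had 20.4% to 23.3% of the Krt10 counts in the 3 mice with at least 100 Krt10 counts. Others did not hold a steady share: Gm44342 had 1.27% to 18.9% of the Krt6a counts and Gm671 had 0.194% to 0.66% of the Krt7 counts. The library kit was directional, but the strand setting used in counting is not given in the sources used here. Reads from a keratin and from its antisense partner therefore cannot be told apart in these counts.

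The listed genes that anchor keratin filaments had fitted log2 fold changes between -0.46 and 0.14. All 12 listed linkers and desmosomal plaque genes, such as desmoplakin (Dsp) and plectin (Plec), passed the filter, with 4 fold changes above 0 and 8 below, a median log2 fold change of -0.07 and 0 at an unadjusted p under 0.05. Their summed level was 1584 to 1708 CPM in wild-type mice and 1433 to 1671 CPM in IL-21isoTg mice. Of 15 other intermediate filament genes, 8 passed the filter, with 4 fold changes in each direction and a median of -0.00. Vim, which encodes vimentin of mesenchymal cells, was at 160, 215 and 162 CPM in wild-type mice and at 329, 279 and 188 CPM in IL-21isoTg mice. Its lowest transgenic value lay within the wild-type range, with a log2 fold change of 0.57 ± 0.24 (SE), an unadjusted p of 0.047 and an adjusted p of 0.809 (edgeR quasi-likelihood test, Benjamini-Hochberg). Of the 3 markers of depleted cells, Pecam1 was highest in the same 2 mice as Vim, IL-21isoTg mice 1 and 2, and so was Pdgfra. Ptprc, at 6.54, 2.16 and 9.4 CPM in wild-type mice and 3.78, 5.84 and 9.14 CPM in IL-21isoTg mice, did not follow Vim and had a log2 fold change of 0.04 ± 0.54 (SE). The 3 markers had a summed level of 45 to 88.1 CPM in wild-type mice and 88 to 150 CPM in IL-21isoTg mice. Their part in the Vim level was not tested.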

How the data were processed

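MEC libraries of 6 samples, 3 per genotype, were analyzed by RNA-seq. According to the submitters' processing notes, Trimmomatic 0.38, HISAT2 2.1.0, SAMtools 1.9 and featureCounts 1.6.3 were used with mm10, and the authors deposited raw read counts per gene without normalization. The annotation and the strand setting of the counting are not given in the sources used here. The deposited size-factor-scaled values and the authors' own comparison (fold changes and p-values) were not used.

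From the counts, genes were filtered with edgeR 4.0.16 (filterByExpr, minimum count 10, minimum total count 15), scaled by TMM, and compared with the robust quasi-likelihood test with genotype as the only term, with Benjamini-Hochberg adjustment over 17165 genes. The fit was tested on simulated data. Alternatives were DESeq2's size factors, TMM without salivary gland genes, no filter, at least 10 counts in every mouse, DESeq2 1.42.0, limma-voom (limma 3.58.1), the likelihood ratio test, a replicate block, and leaving out each mouse, in R 4.3.3. Python 3.11.15, scipy 1.17.1 and matplotlib 3.10.9 were used for ratios, permutation tests and plots. In ratios of counts the pseudocount was 0.5, with 5 as an alternative.

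Total counts were 15902886 to 25719244 per mouse, and the floor of 3 counts covers counting error only. The spread between mice also limits precision: Krt8, with 25448 to 80839 counts per mouse, had a standard error of 0.31. Exon positions and lengths were taken from GENCODE M21 on GRCm38, where 55227 of 55487 identifiers and all 53 keratins were found. The members and the gene lists were chosen with earlier results of these data known. Values in every mouse are given for Krt7, Krt8, Krt18, Krt19, Krt5, Krt14, Krt15, Krt17, Krt1, Krt10 and Krt77 and for any other keratin that passed the filter with a mean of at least 10 CPM or an unadjusted p under 0.05. From the other lists, members with an unadjusted p under 0.05 were named, at most 4 a list. Other keratins and genes were described in counts or named after their values were seen.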

Additional observations from a re-analysis of the deposited data

How the results depend on the processing

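No keratin was called under any alternative run, and no single mouse, when left out, gave a called keratin. Over all genes the quasi-likelihood test called 0, with 548 higher and 451 lower at an unadjusted p under 0.05. Without the filter 14 genes were called higher, with DESeq2 72 higher and 8 lower, and with the likelihood ratio test 52 higher and 13 lower. Leaving out single mice gave 0 to 6 genes higher, with 6 without wild-type mouse 3, and 0 lower. The cause of these differences was not tested.

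Leaving out single mice moved the log2 difference of the basal-to-luminal ratio between -0.06 and 0.5, of the epidermal-to-basal ratio between -0.37 (without wild-type mouse 3) and 1.2, with -0.19 without IL-21isoTg mouse 3, of Krt8-to-Krt18 between -0.09 (without IL-21isoTg mouse 2) and 0.11, and of Krt5-to-Krt14 between -0.35 and -0.12. The log2 fold changes ranged from -0.27 to 0.21 for Krt7, -0.13 to 0.3 for Krt8, -0.06 to 0.18 for Krt18, -0.44 to 0.3 for Krt19, -0.11 to 0.42 for Krt5, -0.62 to 0.42 for Krt15, -1.68 to 6.1 for Krt1, -0.52 to 5.18 for Krt10, -0.57 to 1.54 for Krt6a, -0.93 to 1.13 for Krt16, -0.19 to 1.29 for Krt23 and -0.07 to 0.59 for Krt80. The directions of Krt14, Krt17, Krt77, Krt4 and Krt79 held when each mouse was left out. With limma-voom, Krt7 was at -0.00, Krt19 at -0.06 and Krt1 at 1.54.

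Samples that share a replicate number did not deviate together (r of -0.224, 0.0677 and -0.0619 over 17165 genes), and they share only a number. With the replicate block 0 genes were called, as without it, and the log2 fold changes were -0.04 for Krt19, 4.02 for Krt1, 3.93 for Krt10, 4.65 for Krt77 and 0.20 for Krt16. The block gave 0.29, 0.30, 0.03 and -0.21 for the 4 ratios, in the order above. Depth limits the hair follicle keratins and Krt20, most of which were near the floor of 3 counts in several mice.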
